A study of Mus musculus with 12 samples.

Results

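The 10 genes below belong to the type 2 helper T (Th2) programme, or stood beside it, and were followed across 4 treatments: the cytokines Il4, Il5, Il13, Il10 and Il24, the transcription factor Gata3, the cytokine receptors Il4ra and Il1rl1, and the chemokine receptors Ccr4 and Ccr8. They are 10 of the 45777 genes listed in the table, taken by symbol. They were chosen for the pattern of their FPKM across the treatments, so their levels and differences below are a description, with no p-value, and nothing is read from how many of them passed the threshold, an adjusted p under 0.05. All 10 passed the filter on low values that kept 15197 genes, but Il5 passed it through the Control samples alone and Il1rl1 mainly through the samples with both drugs.

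RNA was measured by RNA sequencing in CD4+ T cells from the spleens of wild type C57BL/6 mice, given as 7 weeks old in the labels and as somewhat older in the study's methods, which were stimulated with anti-CD3 at 0.5 µg/ml for 3 days. The 4 groups held 3 samples each: anti-CD3 without drug (Control), with metformin, with FK506 (tacrolimus), and with both (Metformin+FK506). Every group, Control included, was stimulated, so no resting T cells stand behind these values. The drug doses for these cultures are not given in the sources used here, and the study's methods also list soluble anti-CD28 for its T cell cultures while the labels name anti-CD3 alone. Nothing says whether the 3 samples of a group came from separate mice or cultures, so errors and p-values cover the spread between these samples, which may be technical. Between 43402632 and 64290105 reads were counted per sample.

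Th2 cells are the helper T cells of allergy and of immunity to worms. Their master transcription factor, GATA3, opens the linked genes of interleukin-4 (IL-4), IL-5 and IL-13, and IL-4 returns to the cell through its receptor and the transcription factor STAT6 to keep GATA3 high. IL-10, an anti-inflammatory cytokine, is made by many activated T cells and also by B cells and macrophages, and IL-24 is a relative of IL-10 whose gene lies in the same cluster. FK506 blocks calcineurin, the phosphatase that lets NFAT enter the nucleus after T cell receptor stimulation, and NFAT sites in the promoters of Th2 cytokine genes are textbook targets. Metformin is a diabetes drug that activates the energy sensor AMPK.

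The genes Il4, Il13 and Il5 lie in 1 cluster on mouse chromosome 11 (GRCm38, the build called mm10 elsewhere): Il4 at chr11:53612460-53618665, Il13 at chr11:53631323-53634702, 12657 bases from Il4, and Il5 at chr11:53720794-53725103, 102128 bases from Il4. Il24 at chr1:130882074-130887411 and Il10 at chr1:131019845-131024970 lie 132433 bases apart. Il1rl1 is at chr1:40404864-40465418, Gata3 at chr2:9857078-9887953, Il4ra at chr7:125552271-125579474, Ccr4 at chr9:114490316-114505476 and Ccr8 at chr9:120092133-120094906. The 250 bases upstream of Il4, Il13 and Il5 (RefSeq, GRCm38.p6, chr11:53618666-53618915 on the minus strand, chr11:53634703-53634952 on the minus strand and chr11:53720544-53720793 on the plus strand) are shown because these 3 genes were nearly silent with FK506. Capitals mark GGAAA, the core that NFAT binds, and its reverse complement TTTCC.

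Il4: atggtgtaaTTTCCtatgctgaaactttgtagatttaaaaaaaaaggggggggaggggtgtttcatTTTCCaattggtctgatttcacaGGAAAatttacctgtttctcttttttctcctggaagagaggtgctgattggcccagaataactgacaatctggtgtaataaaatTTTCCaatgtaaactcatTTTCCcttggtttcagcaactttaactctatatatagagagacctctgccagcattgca

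Il13: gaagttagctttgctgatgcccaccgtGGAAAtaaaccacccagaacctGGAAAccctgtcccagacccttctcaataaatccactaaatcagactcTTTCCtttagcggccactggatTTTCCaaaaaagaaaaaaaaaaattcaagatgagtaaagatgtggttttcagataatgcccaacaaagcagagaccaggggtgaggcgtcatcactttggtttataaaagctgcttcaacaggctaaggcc

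Il5: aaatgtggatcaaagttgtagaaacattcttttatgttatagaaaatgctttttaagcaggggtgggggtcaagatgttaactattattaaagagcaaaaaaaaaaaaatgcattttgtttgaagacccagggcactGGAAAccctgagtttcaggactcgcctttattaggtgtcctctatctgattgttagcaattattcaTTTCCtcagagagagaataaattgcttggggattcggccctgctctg

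The Il4 window held 5 matches, the Il13 window 4 and the Il5 window 2. A second Il4 start in RefSeq, inside the gene, has a window (chr11:53617339-53617588) with 0 matches. Among the other members with a window, there were 2 matches for Gata3, 1 each for Il4ra, Ccr4 and both windows of Il1rl1, and 0 for Ccr8, whose level also fell with FK506. The windows of Gata3, Ccr4 and Il1rl1 lie inside the gene spans given above, while those of Il4ra and Ccr8 lie before the gene start. Over 32851 upstream windows of the same length, 55.6% held at least 1 match, the median was 1, and 1.59% held 4 or more. These matches are letters in a window and were not tested as sites of binding.

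The Th2 cytokines were high in Control and fell by different amounts with each drug. Il13 was the most abundant of the 10 genes in Control, with 279, 272 and 278 FPKM (reads scaled to library size and transcript length) in the 3 samples. It stood at 11.5, 9.80 and 10.0 FPKM with metformin, at 1.39, 1.20 and 2.43 with FK506 and at 1.18, 1.61 and 2.02 with both drugs. The metformin samples lay clear of Control below them and of the other treated samples above them, and the samples with FK506 overlapped those with both drugs. Mean levels were 276 ± 3.75 FPKM in Control, 10.4 ± 0.925 with metformin, 1.67 ± 0.662 under FK506 and 1.60 ± 0.417 with both (SD, n = 3). The fitted log2 fold change against Control was -4.76 ± 0.11 (SE) with metformin and -7.62 ± 0.14 with FK506, and it was also -7.62 ± 0.14 with both. Percentages of Control below are ratios of mean FPKM, while fitted values scale the libraries by another method (TMM), so they can differ.

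Il4, which drives B cells to make IgE and T cells towards Th2, was at 43.8, 39.0 and 43.1 FPKM in Control and at 11.9, 10.4 and 10.9 with metformin. With FK506 it was at 0.670, 0.561 and 0.137 FPKM, and with both drugs at 0, 0.478 and 0.441. The metformin samples were again intermediate, and the remaining 6 samples overlapped near 0, each with at most 28 reads. Il4 therefore kept 26.4% of its Control level with metformin and 1.09% with FK506. Its log2 fold change was -1.94 ± 0.22 with metformin, -6.57 ± 0.32 with FK506 and -7.15 ± 0.34 with both, the last moving to -7.81 when Metformin+FK506 replicate 2 was left out.

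Il5, the growth and survival factor of eosinophils, was at 10.5, 10.3 and 9.53 FPKM in Control. It was at 0.499, 0.278 and 0.478 FPKM with metformin, at 0.245, 0.261 and 0.288 with FK506 and at 0.0235, 0.163 and 0.371 with both drugs. All 9 treated samples lay below 0.5 FPKM, and the 3 treated groups overlapped in sequence. Metformin alone left Il5 at 4.14% of Control, FK506 at 2.62% and both drugs at 1.84%. Its log2 fold change was -4.61 ± 0.31, -5.44 ± 0.32 and -5.98 ± 0.34 in that order, and -6.74 for both drugs without Metformin+FK506 replicate 3.

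With metformin the 3 linked cytokine genes kept different shares of their Control level, 26.4% for Il4, 4.14% for Il5 and 3.78% for Il13, while with FK506 each kept at most 2.62%. The ratio of Il13 to Il4 FPKM was 6.60 ± 0.325 in Control and 0.940 ± 0.0234 with metformin (SD, n = 3), the lowest Control ratio being 6.38 and the highest metformin ratio 0.964. The ratio of Il13 to Il5 was 27.4 ± 1.53 in Control and 26.4 ± 7.69 with metformin, with the metformin samples on either side of the Control range. With FK506 it was 6.24 ± 1.98, the highest sample at 8.44 lying below the lowest Control ratio of 26.4, and with both drugs 21.9 ± 24.8.

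**Figure D1:**
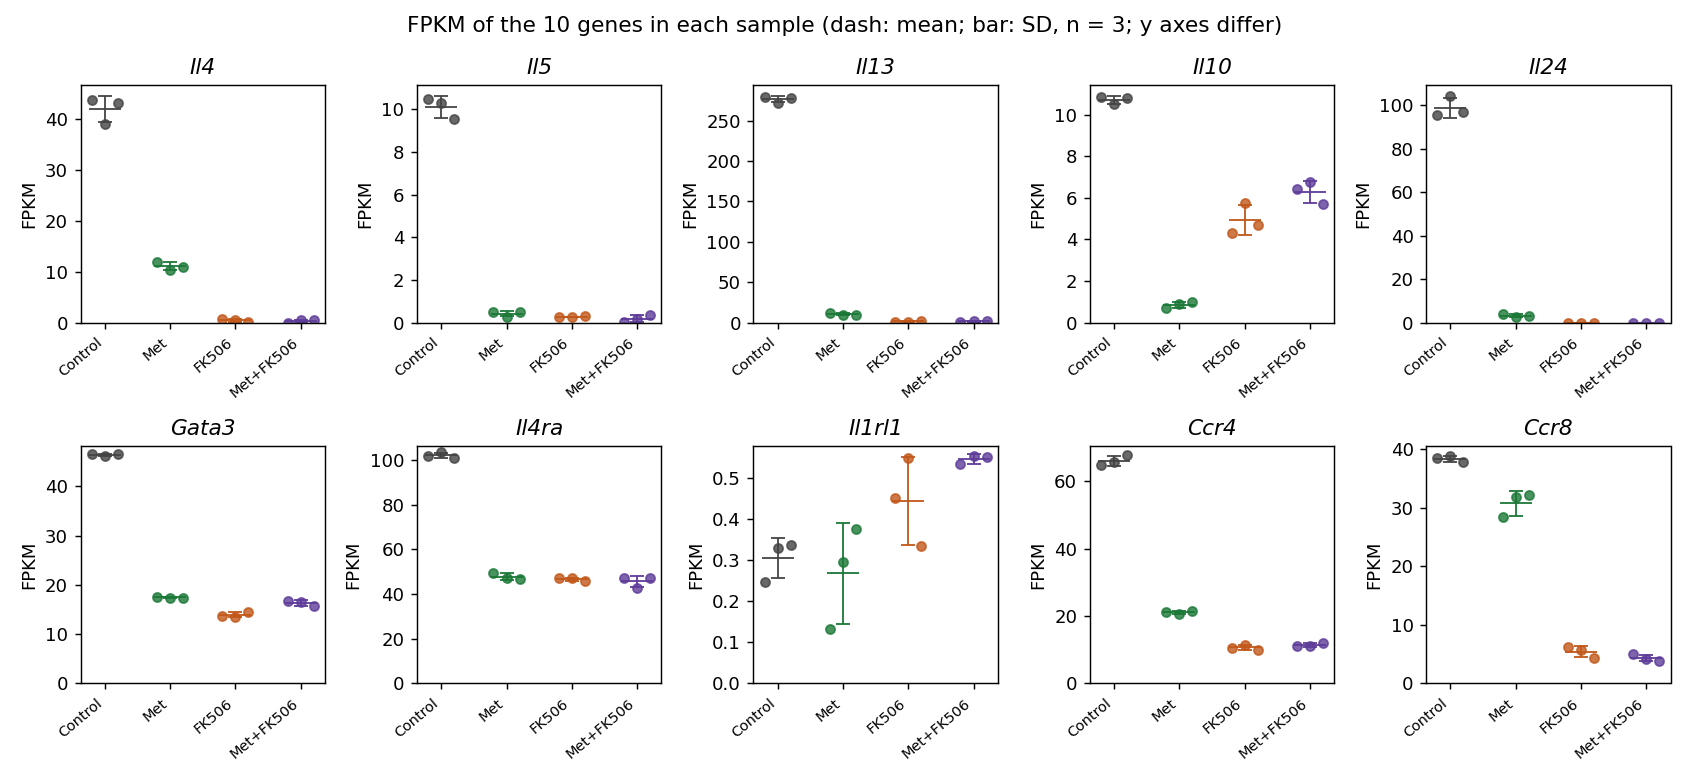
FPKM of the 10 genes (y axes, linear from 0 and different in each panel) in the 3 samples of each treatment (points), with the mean (dash) and SD (bar). Metformin samples sit between Control and the FK506 groups for Il4 and Ccr8, at the bottom of the panel for Il10, and every sample with FK506 is at 0 for Il24.

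Il10 had another order of levels than the Th2 cytokines. It was at 10.9, 10.5 and 10.8 FPKM in Control, at 0.687, 0.882 and 0.987 with metformin, at 4.33, 5.75 and 4.71 with FK506 and at 6.42, 6.75 and 5.70 with both drugs. The lowest levels were with metformin alone, where no sample reached 1 FPKM, and the samples with FK506 and with both drugs overlapped between 4.33 and 6.75 FPKM. Means were 10.7 ± 0.196, 0.852 ± 0.152, 4.93 ± 0.733 and 6.29 ± 0.538 FPKM (SD, n = 3), which put Il10 at 7.94% of Control with metformin, 46.0% with FK506 and 58.7% with both. The log2 fold change was -3.67 ± 0.15 with metformin, -1.34 ± 0.13 with FK506 and -0.96 ± 0.12 with both drugs. With metformin added to FK506 it was 0.38 ± 0.13, and against metformin alone the level with both drugs was higher by 2.71 ± 0.15 on the log2 scale.

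The samples with FK506 also held far more RNA of other leukocytes, and B cells and macrophages can express Il10. The study's methods isolate CD4+ T cells with magnetic beads against CD4 and columns, a selection meant to leave out B cells and most other leukocytes. The 10 B cell markers summed to 51.3 to 53.3 FPKM in Control, 67.6 to 75.5 with metformin, 838 to 887 under FK506 and 410 to 441 with both drugs. The 10 macrophage or monocyte markers summed to 4.66 to 4.70, 9.10 to 10.4, 1238 to 1274 and 792 to 926 FPKM in the same order, and Csf1r, C1qa, C1qb and C1qc were at or under the floor of 3 reads in every sample without FK506. The T cell markers summed to 2525 to 2577 FPKM in Control, 2399 to 2505 with metformin, 2098 to 2215 under FK506 and 2236 to 2319 with both. Of these 12 markers, 6 rose and 4 fell with metformin against Control (median log2 fold change 0.10). With FK506, 4 rose and 8 fell (median -0.47), and with both drugs 3 rose and 8 fell (median -0.22). The part of the other cells in the Il10 level with FK506 was not tested. In bulk RNA, fewer cells that express a gene and less of its RNA per cell cannot be told apart, here or for any gene below.

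**Figure D2:**
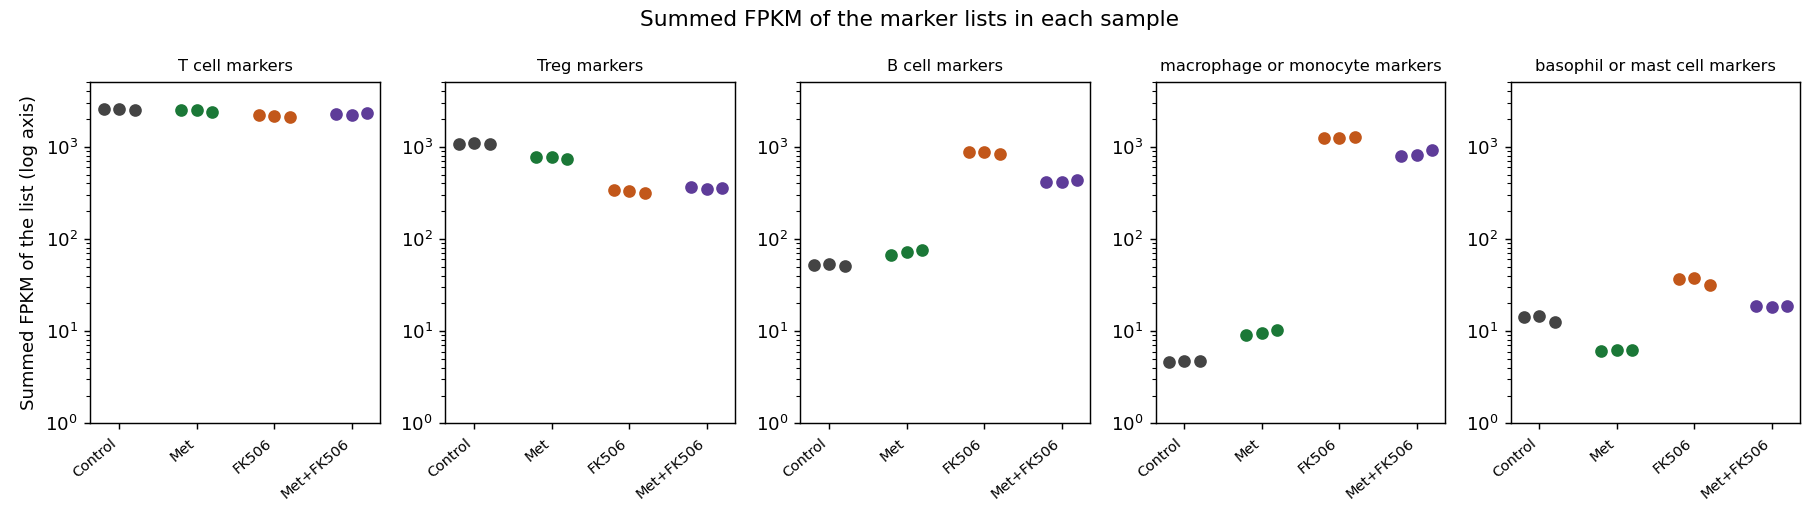
Summed FPKM (log axis) of the marker lists of T cells, regulatory T cells, B cells, macrophages or monocytes, and basophils or mast cells in each of the 12 samples (points, by treatment). B cell sums run from 51.3 to 75.5 without FK506 and from 410 to 887 with it, and macrophage sums from 4.66 to 10.4 and from 792 to 1274.

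Il24 stood out for silence with FK506. It was at 95.6, 104 and 97.0 FPKM in Control (5633, 7016 and 6712 reads) and at 3.83, 2.44 and 3.15 FPKM with metformin (240, 158 and 212 reads), and not a single read was counted in the 6 samples with FK506. In Control it was the third most abundant of the 10 genes, after Il13 and Il4ra. Metformin left it at 3.17% of Control, with a log2 fold change of -5.01 ± 0.11. Taking 3 reads as the limit that a count of 0 allows in a library, Il24 was at least 2122-fold lower with FK506 and at least 1993-fold lower with both drugs than in Control, and at least 62.1-fold lower with both drugs than with metformin. No fold can be given between the groups at 0. Such limits cover counting error alone. The ratio of Il24 to Il10 was 9.23 ± 0.601 in Control and 3.84 ± 1.51 with metformin.

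Gata3 fell in every treated group but stayed well expressed. It was at 46.5, 46.1 and 46.5 FPKM in Control, at 17.6, 17.4 and 17.4 with metformin, at 13.7, 13.6 and 14.5 with FK506 and at 16.7, 16.6 and 15.6 with both drugs. On FPKM all 4 groups were apart from each other, in the order Control, metformin, both drugs, FK506. The treated groups kept 37.6%, 35.2% and 30.0% of Control in that order. On TPM the metformin samples (34.5 to 35.4) overlapped those with FK506 (33.0 to 36.1), and those with both drugs (38.6 to 42.4) lay above them. The log2 fold change was -1.44 ± 0.041 with metformin and -1.95 with FK506, and adding metformin to FK506 gave 0.26. The level with both drugs was 0.25 lower than with metformin on the log2 scale, but this turned to 0.057 higher when libraries were scaled to T cell genes and to 0.22 higher on log2(TPM + 1). Il13 moved much further than its activator: the ratio of Il13 to Gata3 FPKM was 5.96 ± 0.0514 in Control, 0.598 ± 0.0487 with metformin, 0.119 ± 0.0424 under FK506 and 0.0990 ± 0.0292 with both (SD, n = 3).

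Il4ra, the chain shared by the receptors for IL-4 and IL-13, was at 102, 103 and 101 FPKM in Control. It was at 49.4, 47.1 and 46.5 FPKM with metformin, at 47.1, 47.0 and 45.9 with FK506 and at 47.0, 42.7 and 47.2 with both drugs. The 3 treated groups overlapped in sequence, at 46.7%, 45.7% and 44.7% of Control. Fitted log2 fold changes were -1.13 with metformin, -1.34 with FK506 and -1.35 with both. The log2 ratios of mean FPKM were -1.10, -1.13 and -1.16 in that order. The fitted difference of both drugs from metformin was -0.22 (-0.064 on mean FPKM). That difference turned to 0.092 with libraries scaled to T cell genes and to 0.26 on log2(TPM + 1). Il4ra is also expressed by B cells and macrophages, whose markers were up with FK506 as given above, and their part in its level was not tested.

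Il1rl1, the IL-33 receptor ST2 of Th2 cells, mast cells and a subset of regulatory T cells, was barely expressed in any group. It was at 0.248, 0.329 and 0.338 FPKM in Control, at 0.133, 0.295 and 0.375 with metformin, at 0.452, 0.549 and 0.335 with FK506 and at 0.534, 0.554 and 0.552 with both drugs. Neighbouring groups overlapped throughout this order, and 1 sample with FK506 lay inside the Control range. No sample had more than 200 reads. The log2 fold change was -0.075 ± 0.29 with metformin, 0.43 ± 0.28 with FK506 and 0.77 ± 0.28 with both. The difference with FK506 was not past the threshold here, but it was with libraries scaled to T cell genes (0.92) and on log2(TPM + 1) (0.35). Against Control, both drugs lost the threshold (log2 fold change 0.64) when Control replicate 1 was left out. Kit, a mast cell and progenitor receptor, was at 0.0871 ± 0.0384 FPKM in Control, 0.108 ± 0.0644 with metformin, 23.8 ± 0.525 under FK506 and 15.9 ± 0.349 with both drugs.

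The chemokine receptors of Th2 cells differed mainly in their response to metformin. Ccr4, which guides T cells to skin, was at 64.9, 65.8 and 67.7 FPKM in Control and at 21.3, 20.6 and 21.3 with metformin. It was at 10.5, 11.5 and 9.98 FPKM with FK506 and at 11.1, 11.0 and 12.1 with both drugs, where the groups overlapped. Ccr8, found on Th2 cells and on activated regulatory T cells, was at 38.5, 38.8 and 37.8 FPKM in Control and at 28.4, 31.9 and 32.1 with metformin. With FK506 it was at 6.27, 5.65 and 4.37 FPKM and with both drugs at 4.99, 4.21 and 3.89, again overlapping.

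Metformin thus left Ccr8 at 80.3% of Control and Ccr4 at 31.9%, while FK506 left them at 14.1% and 16.2%. The log2 fold change with metformin was -0.35 ± 0.092 for Ccr8 and -1.68 for Ccr4. With FK506 it was -3.02 ± 0.10 for Ccr8 and -2.87 for Ccr4. The ratio of Ccr4 to Ccr8 FPKM was 1.72 ± 0.0570 in Control, 0.687 ± 0.0550 with metformin, 2.00 ± 0.302 under FK506 and 2.65 ± 0.447 with both drugs. The 8 markers of regulatory T cells summed to 1066 to 1091 FPKM in Control, 736 to 784 with metformin, 314 to 339 under FK506 and 351 to 362 with both. With metformin 1 of the 8 rose, 5 fell and 2 did not pass the threshold (median -0.70). With FK506 4 of the 8 rose and 4 fell (median of the list -0.24 on the log2 scale), and with both drugs 4 rose and 4 fell (median 0.16). Foxp3, the defining factor of regulatory T cells and named after its values were seen, rose by 2.72 with FK506 (adjusted p = 5.04e-15), and Il2ra, the IL-2 receptor alpha chain, fell by 2.96 (adjusted p = 4.91e-19).

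**Figure D3:**
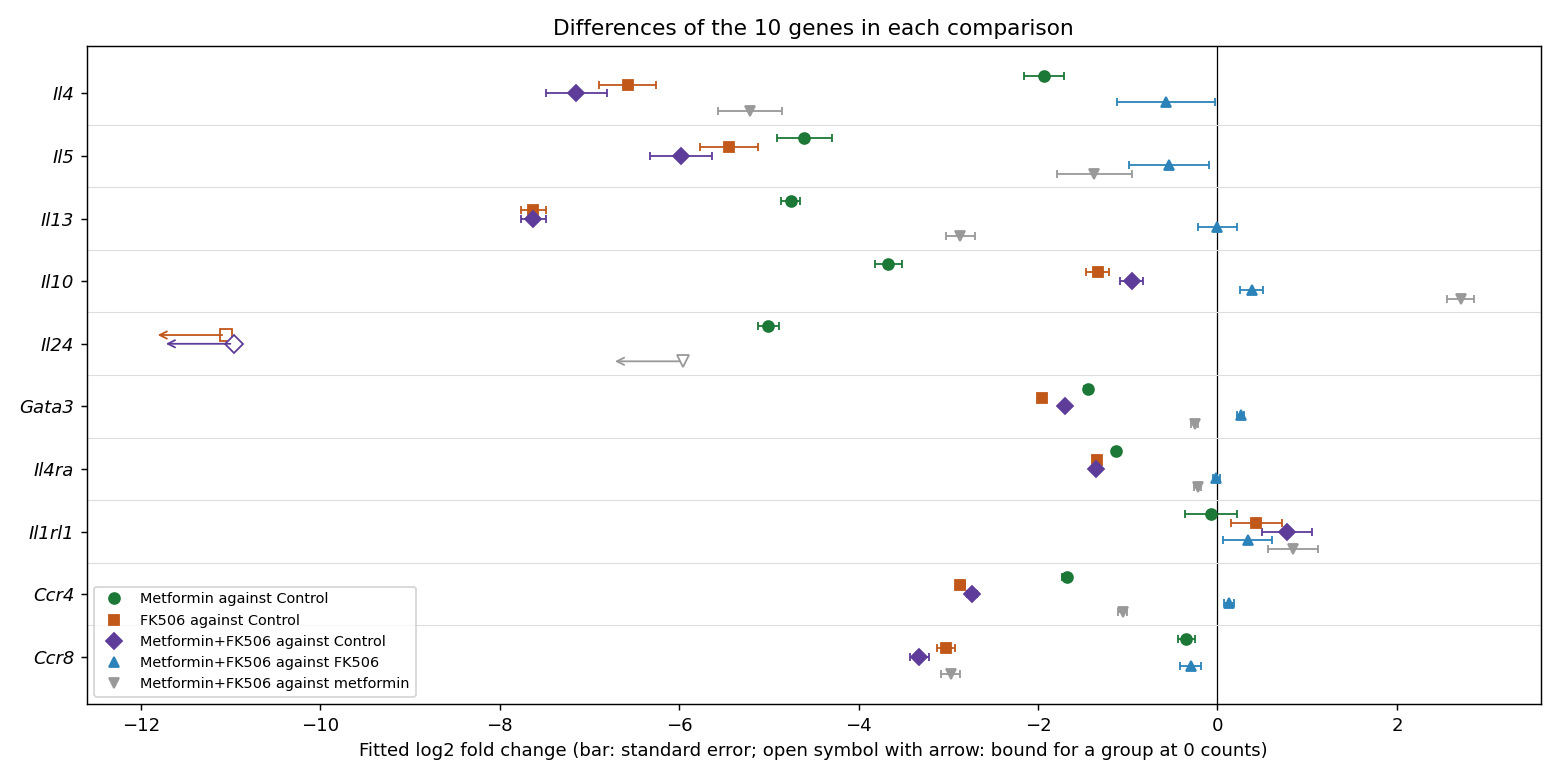
Fitted log2 fold changes (x axis) with standard errors (bars) of the 10 genes in 5 comparisons (colours and symbols), with open symbols and arrows for the bounds of Il24. Il10 lies to the left at -3.67 with metformin and to the right at 2.71 for both drugs against metformin, and the symbols for both drugs against FK506 all lie between -0.58 and 0.38.

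Among all genes tested, 28.6% rose and 27.4% fell with metformin against Control, and 65.0% had FPKM ranges that did not overlap. Against this background, 9 of the 10 genes were past the threshold downwards with metformin, and 9 had ranges apart, Il1rl1 being the exception. Their median log2 fold change was -1.81, with 0.011 for all genes tested. With FK506 against Control, 41.3% of all genes rose, 39.6% fell and 84.4% had ranges apart, and 9 of the 10 genes were down, with a median of -2.94 against 0.024. With both drugs against Control, 42.1% rose, 39.6% fell and 82.0% had ranges apart, and 9 genes were down and Il1rl1 was up, with a median of -3.03 against 0.033. Since the genes were chosen on these differences, the counts carry no weight of their own. The 3 comparisons share the Control samples.

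When metformin was added to FK506, 15.6% of all genes tested rose, 15.0% fell and 38.6% had ranges apart. Of the 10 genes, Gata3 and Il10 were past the threshold, both upwards, and Gata3 alone had ranges apart. The median was -0.00023, with 0.0019 for all genes tested. The Il10 difference lost the threshold without FK506 replicate 1 (0.28), without FK506 replicate 3 (0.34), without replicate 1 of the combination (0.36) and without Metformin+FK506 replicate 2 (0.30), while Il5 (-1.30) passed it downwards without Metformin+FK506 replicate 3. Ccr8 passed downwards when either FK506 replicate 3 (-0.43) or Metformin+FK506 replicate 1 (-0.40) was left out, with DESeq2 (-0.31) and with libraries scaled to T cell genes (-0.40). Il4ra passed downwards with that scaling (-0.11), and Ccr4 passed upwards without FK506 replicate 2 (0.18).

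Against metformin alone, both drugs gave larger differences. Of all genes tested, 40.3% rose, 37.9% fell and 78.2% had ranges apart. Il10 and Il1rl1 were past the threshold upwards and the other 8 genes downwards, with 8 of the 10 having ranges apart and a median of -1.21. Il4 differed by -5.21 ± 0.35 on the log2 scale, or -5.86 without Metformin+FK506 replicate 2, and Il5 by -1.37 ± 0.41, or -2.12 without Metformin+FK506 replicate 3. Il13 differed by -2.87 ± 0.16, Ccr4 by -1.06 and Ccr8 by -2.97 ± 0.11. Il1rl1 differed by 0.84 ± 0.28 and lost the threshold without Metformin replicate 1 (0.53). The Il5 difference was not past the threshold on log2(TPM + 1) (-0.37) or in a fit of only those 2 groups (-1.35), nor was that of Il4ra on log2(FPKM + 1) (-0.063) or log2(FPKM + 0.1) (-0.065).

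The interaction compares the effect of metformin in the presence of FK506 with its effect in its absence, on the log2 scale. It was past the threshold for 46.5% of all genes tested and for 6 of the 10 genes, all upwards, which means that the log2 fold change with metformin was higher when FK506 was present. It was 4.76 for Il13, 4.07 for Il5, 4.05 for Il10, 1.81 for Ccr4, 1.70 for Gata3 and 1.12 for Il4ra. It was 0.050 for Ccr8, 0.41 ± 0.39 for Il1rl1 and 1.36 for Il4, and it had no usable estimate for Il24, whose reads were 0 with FK506. For Il24 it passed the threshold with DESeq2 and in all 3 limma fits, but with 2 groups at 0 reads the effect of metformin in the presence of FK506 is 0 by construction, so the value there (4.61 on log2(FPKM + 1)) restates the difference of metformin from Control (-4.61). Il13 and Il5 were already at 0.605% and 2.62% of Control with FK506. Both drugs against FK506 gave -0.00046 ± 0.22 for Il13 and -0.54 ± 0.44 for Il5. Their interactions thus mostly restate the differences of metformin from Control (-4.76 and -4.61). Whether metformin had room to lower them further was not tested. The Il5 interaction was 3.31 without Metformin+FK506 replicate 3. The Il4 value was 0.71 without Metformin+FK506 replicate 2, and it passed the threshold without Metformin+FK506 replicate 1 (1.92), on log2(FPKM + 1) (1.67) and on log2(TPM + 1) (1.64).

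Genes whose profile was nearest to each of the 10 were found by the root mean square difference of log2(FPKM + 1), centred on its mean, over the 12 samples. Il13 and Il24, on different chromosomes, were each other's nearest gene among all genes tested, 0.189 apart. This closeness holds on that scale, where FK506 against Control was -6.73 for Il13 and -6.64 for Il24, and Il24 had no reads with FK506. On log2(FPKM + 0.1) the values were -7.35 and -9.95. The next nearest were Lif and Serpinf1, from 0.642 to 0.706. Lif, a cytokine of the IL-6 family, was at 133, 10.9, 2.68 and 3.18 FPKM in Control, metformin, FK506 and the combination. Gata3 lay nearest to Jmjd6 (0.0604), Pfkl (0.0795) and Hk1 (0.0882), the latter pair being enzymes of glycolysis. The nearest of the other 9 genes to Gata3 was Il4ra, 0.205 away.

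The 3 genes nearest to Ccr4 were Gm7336 (0.0603), Gm2606 (0.0660) and Ldha (0.0665), lactate dehydrogenase A. Il4 was followed by the glucose transporter gene Slc2a3 (0.354), Crabp2 (0.399) and the granzyme gene Gzmb (0.414), and Gzmb was at 753, 292, 17.2 and 16.0 FPKM in the order above. Il10 had Dennd3 (0.227), the metallothionein gene Mt1 (0.253) and Lgals3bp (0.317) as nearest genes, all lowest with metformin alone. Il5 lay nearest to Selenbp1 (0.184), Oas3 (0.185) and Smtnl2 (0.190), Il4ra to Pgam1-ps1 (0.0668), Elmo2 (0.0681) and Atp7b (0.0685), Ccr8 to Atg9b (0.135), Aqp9 (0.143) and Unc13a (0.167), and Il1rl1 to Gpatch1 (0.0679), Zfp146 (0.0692) and Zmpste24 (0.0729). For a gene near 0 FPKM in every group, as Il1rl1 was, a small distance says little beyond a flat profile on this scale. The added 1 also shrinks the change of low genes: Atp7b went from 1.23 FPKM in Control to 0.0987 with metformin and 0.0476 with FK506, a larger relative fall than that of Il4ra.

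Other genes of the Th2 and IL-10 pathways were taken from lists that were chosen with earlier results of these data known. They were tested with the quasi-likelihood test of edgeR, the p-values being adjusted by Benjamini-Hochberg over the 15197 genes. Since the lists were not blind to these data, the counts and p-values of listed genes are no independent test. Of 69 listed, 55 could be tested. With metformin, 15 rose, 33 fell and 7 did not pass the threshold, with a median log2 fold change of -0.41, beside 28.6% and 27.4% of all genes that rose and fell. With FK506, 22 rose, 28 fell and 5 did not pass (median -0.20), beside 41.3% and 39.6% of all genes, so most genes were called whether listed or not. With both drugs, 21 rose, 30 fell and 4 did not pass (median -0.17), beside 42.1% and 39.6% of all genes. With both drugs against FK506, 9 rose, 20 fell and 26 did not pass (median -0.078), beside 15.6% and 15.0%. The counts of single lists and marker sets, above and below, are to be read beside the same shares.

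**Figure D4:**
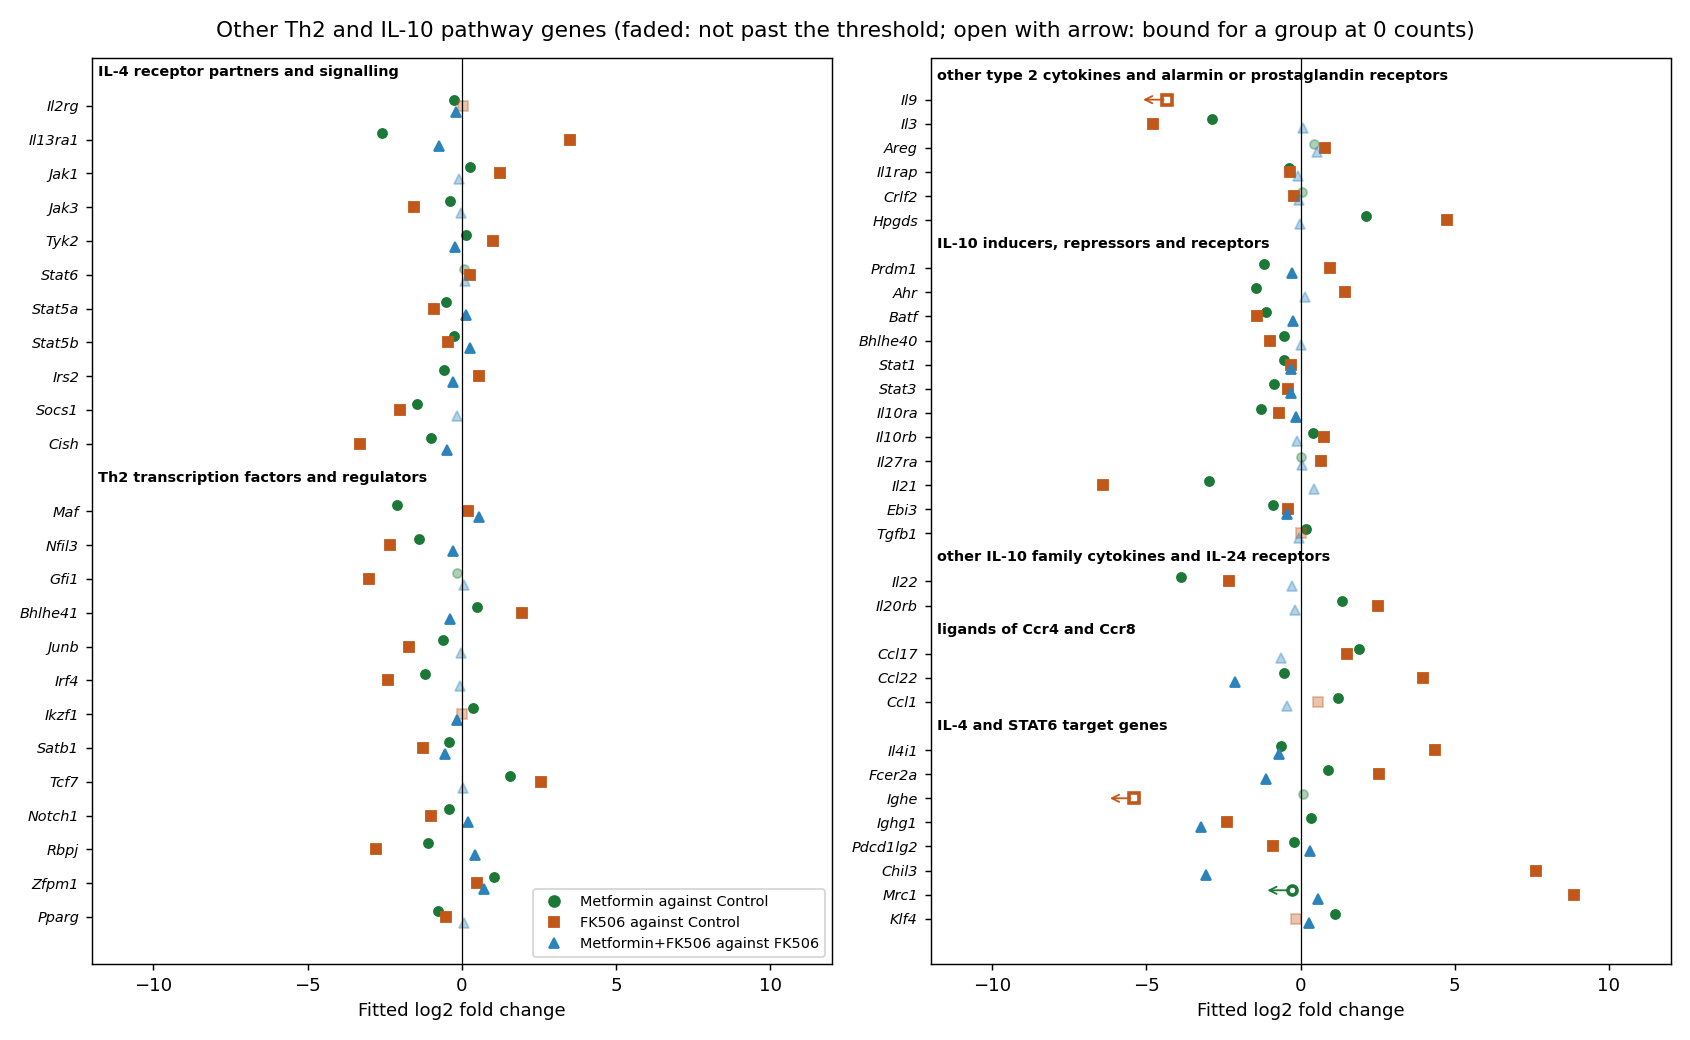
Fitted log2 fold changes (x axes) of 55 other Th2 and IL-10 pathway genes by list for metformin against Control, FK506 against Control and both drugs against FK506. Faded symbols did not pass the threshold, open symbols with arrows are bounds for a group at 0 reads, and comparisons with a group at 3 reads or fewer and no such bound are not drawn. Maf, Prdm1 and Ahr lie to the left with metformin and to the right with FK506, while Batf and Bhlhe40 lie to the left with FK506.

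Of the 13 Th2 transcription factors and regulators, 4 rose and 8 fell with each drug alone. Irf4, a partner of NFAT in activated T cells, fell by 1.18 on the log2 scale with metformin (adjusted p = 1.61e-12) and fell by 2.41 with FK506 (adjusted p = 4.55e-17). Nfil3, an activator of Il10 and of type 2 cytokines, fell by 1.37 (adjusted p = 2.25e-12) and fell by 2.31 (adjusted p = 6.98e-16). Gfi1, which supports Th2 cell growth, was not past the threshold with metformin (-0.14 ± 0.068, adjusted p = 0.0914) and fell by 3.02 with FK506 (adjusted p = 1.91e-15). Rbpj, the nuclear partner of Notch, fell by 1.08 (adjusted p = 1.42e-12) and fell by 2.80 (adjusted p = 3.58e-18). Tcf7, which is high in naive T cells, rose by 1.57 with metformin (adjusted p = 9.83e-16) and by 2.58 with FK506 (adjusted p = 4.91e-19).

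Maf, the transcription factor c-MAF that activates Il4 and Il10, was lowest with metformin and highest with both drugs. It was at 8.44 ± 0.733 FPKM in Control, 2.00 ± 0.171 with metformin, 11.4 ± 0.359 under FK506 and 16.4 ± 2.30 with both drugs (SD, n = 3). Maf fell by 2.1 with metformin (adjusted p = 6.72e-11) and rose by 0.22 with FK506 (adjusted p = 0.0425), by 0.77 with both drugs (adjusted p = 9.2e-07) and by 0.55 with both drugs against FK506 (adjusted p = 0.000221). The metformin samples were the lowest for Maf as they were for Il10. Macrophages express Maf as well, and the part of the higher macrophage markers in its level with FK506 was not tested.

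Among the 12 tested inducers, repressors and receptors of IL-10, 2 rose and 9 fell with metformin, and 4 rose and 7 fell with FK506. Prdm1, the gene of Blimp-1, fell by 1.17 with metformin (adjusted p = 1.02e-07) and rose by 0.94 with FK506 (adjusted p = 1.75e-07). Ahr, the aryl hydrocarbon receptor, fell by 1.45 (adjusted p = 9.91e-09) and rose by 1.43 (adjusted p = 5.91e-10). Both encode known activators of Il10 in T cells, and both are also expressed in B cells and macrophages. The marker sums of those cells were higher with FK506, and their part was not tested. Batf and Bhlhe40 of the same list went the other way with FK506, at -1.42 and -0.99. With both drugs against Control they were at -1.65 and -0.97. Il21, a cytokine that induces IL-10, fell by 2.97 with metformin (adjusted p = 6.26e-13) and fell by 6.39 with FK506 (adjusted p = 1.44e-16), from 13.3 ± 0.177 FPKM in Control to 1.74 ± 0.211 and 0.176 ± 0.0300. Il10ra, the ligand-binding chain of the IL-10 receptor, fell by 1.30 (adjusted p = 6.91e-13) and fell by 0.71 (adjusted p = 1.99e-10).

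Of the 11 tested partners of the IL-4 receptor and its signalling, 2 rose and 8 fell with metformin and 5 rose and 5 fell with FK506. Cish, a STAT5 target that restrains cytokine signalling, fell from 162 ± 2.02 FPKM in Control to 82.5 ± 1.91 with metformin, 19.2 ± 0.454 with FK506 and 13.7 ± 0.628 with both drugs, with log2 fold changes of -1.01 (adjusted p = 1.35e-12), -3.30 (adjusted p = 4.91e-19) and -3.76 (adjusted p = 2.25e-19). Socs1, another suppressor of cytokine signalling, fell by 1.46 with metformin (adjusted p = 1.99e-10) and fell by 2.00 with FK506 (adjusted p = 8.02e-13). Jak3 fell by 1.56 with FK506 (adjusted p = 5.96e-16). Stat6, named here after its values were seen because it carries the IL-4 signal, was at 62.1 ± 0.705, 66.7 ± 0.948, 86.7 ± 1.61 and 91.9 ± 7.63 FPKM, and rose by 0.26 with FK506 (adjusted p = 2.17e-05). Il13ra1, the partner of IL-4Rα in myeloid cells, fell by 2.60 with metformin (adjusted p = 0.000261), or by 4.10 without Metformin replicate 3, and rose by 3.51 with FK506 (adjusted p = 2.49e-08), where the macrophage markers were also high. It was at 0.285 ± 0.0390 FPKM in Control and 0.0440 ± 0.0537 with metformin.

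Of the 9 other type 2 cytokines and receptors listed, 6 could be tested. Il9 was at 1.89 ± 0.150 FPKM in Control, 0.0211 ± 0.0365 with metformin and 0 in all 6 samples with FK506, at least 20.0-fold lower with FK506 than in Control (adjusted p = 4.3e-07). Il3 was at 1.26 ± 0.108, 0.167 ± 0.0911, 0.0448 ± 0.0776 and 0.0389 ± 0.0674 FPKM, and fell by 2.87 with metformin (adjusted p = 0.000971, not past the threshold with DESeq2) and fell by 4.79 with FK506 (adjusted p = 1.97e-05). Its only reads with FK506 alone were 8 in replicate 1. Without that replicate the fitted value was -9.07, which then depends on the prior count and is no bound. Hpgds, a prostaglandin D2 synthase, rose by 2.13 (adjusted p = 2.02e-09) and by 4.77 (adjusted p = 3.8e-15).

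The relatives of Il10 and Il24 were scarce. Of 7 listed cytokines and IL-24 receptor genes, 2 could be tested. Il22 was at 2.35 ± 0.341 FPKM in Control, 0.163 ± 0.0738 with metformin, 0.576 ± 0.186 under FK506 and 0.441 ± 0.123 with both drugs, and fell by 3.86 with metformin (adjusted p = 2.62e-07) and fell by 2.33 with FK506 (adjusted p = 5.84e-06). Il22 was lowest with metformin alone, as Il10 was, but its difference between both drugs and metformin (1.25, adjusted p = 0.0122) lost the threshold without Metformin replicate 3 (1.03) or without Metformin+FK506 replicate 1 (0.95). Il20rb, a receptor chain for IL-24, rose by 1.34 with metformin (adjusted p = 0.000224) and by 2.53 with FK506 (adjusted p = 5.3e-08).

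Genes that IL-4 and STAT6 switch on in B cells and macrophages moved in both directions, 4 up and 3 down of 8 tested with FK506. Germline and switched IgE transcripts (Ighe) were at 1.48 ± 0.213 FPKM in Control, 1.60 ± 0.433 with metformin and 0 in all samples with FK506, at least 42.2-fold lower than in Control (adjusted p = 1.29e-08). Ighg1 was at 11.3 ± 1.08, 14.6 ± 0.774, 2.51 ± 0.315 and 0.253 ± 0.0725 FPKM. It fell by 2.38 with FK506 (adjusted p = 1.26e-11) and, when metformin was added, fell by 3.23 more (adjusted p = 1.79e-09).

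Il4i1, an amino acid oxidase of B cells and myeloid cells, went from 5.83 ± 0.190 FPKM in Control to 3.83 ± 0.283 with metformin, 138 ± 1.71 with FK506 and 84.0 ± 1.35 with both. Mrc1, the mannose receptor of macrophages, was at 0.0106 ± 0.00489, 0, 6.60 ± 0.663 and 9.68 ± 0.446 FPKM. Of 5 listed ligands of the receptors among the 10 genes, 3 could be tested, of which 2 rose and 1 fell with metformin, and 2 rose and 1 did not pass with FK506. Ccl17, a ligand of CCR4, rose by 1.89 with metformin (adjusted p = 0.0029) and by 1.52 with FK506 (adjusted p = 0.0082), from 0.109 ± 0.0342 FPKM in Control to 0.633 ± 0.355 and 0.976 ± 0.164. The order of the 2 drugs thus differed between fitted counts and FPKM, and with at most 49 reads in a sample no order is read. Ccl1, the ligand of CCR8, rose by 1.21 with metformin (adjusted p = 0.0344) and was not past the threshold with FK506 (0.57 ± 0.47, adjusted p = 0.275). With at most 37 reads in a sample, its metformin difference lost the threshold with DESeq2 (1.21), with no filter (1.19), on log2(FPKM + 0.1) (0.97) and log2(TPM + 1) (0.61), without any one of the Control replicates (1.14 to 1.29), without Metformin replicate 2 (0.93) and without Metformin replicate 3 (1.09). Ccl22, another ligand of CCR4, fell by 0.54 with metformin (adjusted p = 1.46e-05) and rose by 3.97 with FK506 (adjusted p = 1.64e-17), from 7.93 ± 0.707 FPKM to 145 ± 7.32, and was at 32.8 ± 2.05 with both drugs, a fall of 2.12 against FK506 (adjusted p = 1.05e-12). Ccl22 is made mainly by dendritic cells and macrophages. The macrophage marker sum was also lower with both drugs than with FK506, but this was not shared across the list. Of its 10 markers, 3 rose, 1 fell and 6 did not pass the threshold (median 0.13). The part of macrophages in the Ccl22 difference was not tested.

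Basophils and mast cells also make IL-4 and IL-13, so their markers were read beside these cytokines. The 10 listed markers summed to 12.7 to 14.6 FPKM in Control, 6.12 to 6.30 with metformin, 31.6 to 37.5 under FK506 and 18.3 to 18.6 with both drugs. Most of the Control sum came from Cyp11a1 (12.8 ± 0.829 FPKM), a steroid enzyme that Th2 cells express as well, while 5 of the 10 markers, Mcpt8, Fcer1a, Ms4a2, Prss34 and Cd200r3, were at or under 3 reads there. Most of the sums with FK506 came from Kit, with the 23.8 FPKM given above of a mean sum of 35.3 under FK506 and 15.9 of 18.5 with both drugs. With both drugs, Mcpt8, Cpa3, Fcer1a, Ms4a2 and Prss34 were at or under 3 reads. Of the 6 markers that could be tested, 4 rose, 1 fell and 1 did not pass with FK506. Cyp11a1 fell by 4.60 on the log2 scale (adjusted p = 2.67e-14), to between 0.336 and 0.713 FPKM. Mcpt8, a basophil protease chosen after its values were seen, was at 3.89, 3.10 and 1.73 FPKM in the samples with FK506 and at 0 in all 9 others. The FK506 sample with the least Mcpt8 was also the one with the least Il4 (0.137 FPKM) and the most Il13 (2.43 FPKM). With 3 samples, and Il4 at 28, 23 and 5 reads, no link is read from this order. The part of basophils and mast cells in the residual cytokine levels was not tested. The 5 eosinophil markers summed to at most 5.10 FPKM and the 4 NK cell markers to at most 1.71 in any sample, and the 2 CD8 T cell markers to between 6.84 and 13.2.

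The genes beside the cytokines moved in both directions. Next to the Th2 cytokines, Kif3a, 8211 bases from Il4, fell by 0.78 with metformin (adjusted p = 3.9e-07) and fell by 1.68 with FK506 (adjusted p = 9.09e-12). Rad50, which lies between Il13 and Il5 and holds their locus control region, fell by 0.84 (adjusted p = 8.3e-10) and fell by 1.46 (adjusted p = 1.41e-13). Irf1, on the far side of Il5, rose by 0.34 (adjusted p = 2.05e-07) and by 0.95 (adjusted p = 9.54e-14), and Slc22a5 rose by 0.27 with FK506 (adjusted p = 0.00187).

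Around Il10 and Il24, Mapkapk2 fell by 0.71 with metformin (adjusted p = 1.4e-11) and fell by 1.32 with FK506 (adjusted p = 1.01e-15), and Dyrk3 fell by 1.95 with FK506 (adjusted p = 1.66e-06). Fcmr, the IgM Fc receptor of B cells, lies 1283 bases from Il24 and rose by 6.00 with FK506 (adjusted p = 2.52e-16), to 143 ± 2.65 FPKM, in the same samples in which Il24 had no reads. Il20, between Il24 and Il10, had no reads in any sample, and Il19 had at most 21. Whether reads were counted by strand is not stated in the sources used here.

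Beside Il1rl1 lie the receptor genes of IL-18 and IL-1. Il18r1, 133 bases away, was at 0.778 ± 0.126 FPKM in Control, 4.14 ± 0.267 with metformin, 17.4 ± 0.599 under FK506 and 26.0 ± 1.73 with both drugs, and rose by 2.38 with metformin (adjusted p = 3.81e-12) and by 4.34 with FK506 (adjusted p = 1.38e-16). Il18rap rose by 3.09 (adjusted p = 4.04e-12) and by 5.02 (adjusted p = 4.63e-16). Il1r1, the IL-1 receptor, was not past the threshold with metformin (-0.51 ± 0.29, adjusted p = 0.145) and rose by 5.58 with FK506 (adjusted p = 1.19e-14). Of all 12 tested neighbours in the 3 regions, 4 rose and 3 fell with metformin, 8 rose and 4 fell with FK506, and 7 rose and 4 fell with both drugs. Among all genes tested, 28.6% rose and 27.4% fell with metformin, 41.3% and 39.6% with FK506, and 42.1% and 39.6% with both drugs. Nothing about these regions is read from the counts.

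**Figure D5:**
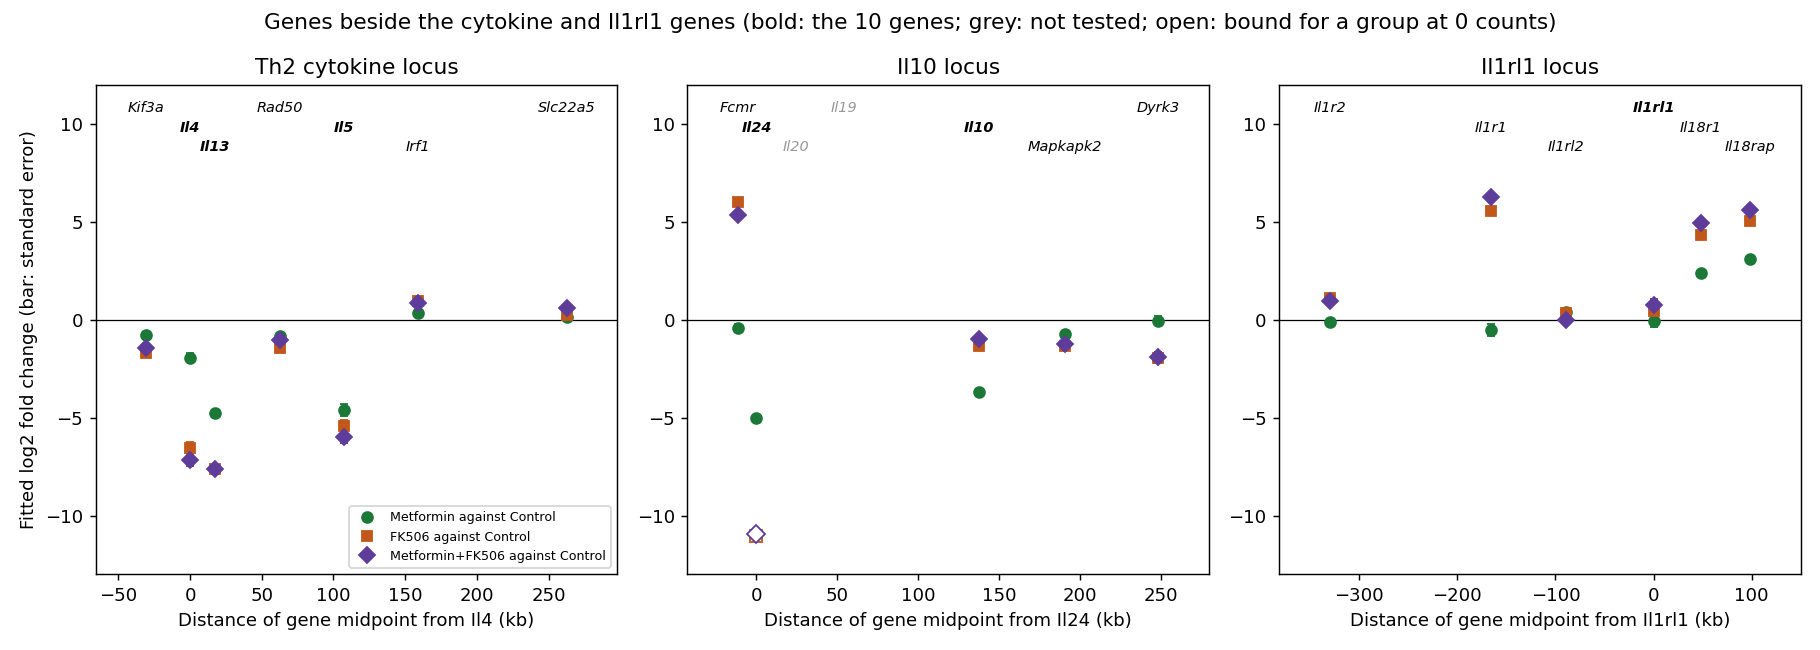
Fitted log2 fold changes against Control (y axis, bars are standard errors) of the genes beside Il4, Il24 and Il1rl1, by the distance between gene midpoints in kb (x axes), for metformin, FK506 and both drugs. The cytokine genes reach from -0.96 to -7.62 and to the bound of Il24 beyond -10, while Fcmr next to Il24 is at 6.00 with FK506 and Il18r1 next to Il1rl1 at 4.34.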

How the data were processed

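RNA sequencing of 12 samples was used, grouped by their labels into 4 groups of 3. The authors deposited raw read counts per gene, together with FPKM (scaled to depth and transcript length) and TPM values, for 45777 genes. The submitters' processing notes name bcl2fastq 2.20.0, Trimmomatic, HISAT2 2.1.0, StringTie 2.1.3b and mm10. The counting program, the use of strand and the treatment of reads shared between paralogs are not given in the sources used here, so genes with near copies, such as Gm7336, Gm2606, Pgam1-ps1 and the immunoglobulin genes, are uncertain. Totals of counts ranged from 43402632 to 64290105 per sample, and no pair of replicates agreed within sampling noise (chi-square per degree of freedom 3.98 to 15.2).

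Genes that reached an FPKM of 0.5 in 3 or more samples (15197) were fitted on the deposited counts with edgeR 4.0.16 (R 4.3.3), using TMM scaling and the quasi-likelihood test on all 12 samples (8 residual degrees of freedom), with Benjamini-Hochberg adjustment and a threshold of 0.05. The code of the fit was also run on simulated counts, and the outcome is not given here. Of the genes, 18141 had no read in any sample. FPKM ranges were called apart when no sample of either group lay within the range of the other. The members and lists were chosen with earlier results of these data known. Named were all 10 members and the 3 genes nearest to each member. Listed genes were named from the up to 4 per list and comparison with the largest log2 fold change past the threshold. Not all of those were printed, Chil3 (7.63 with FK506) being one left out. Of each marker list, the genes with the highest and lowest mean were to be named, and sums are given instead. Alternatives were DESeq2 1.42.0, its size factors in edgeR, other filters, limma 3.58.1 on log2(FPKM + 1), on log2(FPKM + 0.1) and, added after seeing the data, on log2(TPM + 1), scaling to 12 T cell genes, a fit of only the groups compared, a replicate block and leaving out each sample. Positions and upstream sequences are from RefSeq on GRCm38.p6. Il10 and Il24 upstream sequences were not analysed here.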

Additional observations from a re-analysis of the deposited data

Results flagged for a closer look

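Several genes of the lists moved in opposite directions with metformin depending on whether FK506 was present, and the interaction term of edgeR's quasi-likelihood fit, adjusted over all genes, tested that difference. The interaction was 2.66 for Maf (adjusted p = 2.23e-10), which fell by 2.1 with metformin alone and rose by 0.55 with metformin on top of FK506. It was 1.50 for Rbpj (adjusted p = 4.56e-12), 1.25 for Rad50 (adjusted p = 8.41e-10), 0.65 for Stat5a (adjusted p = 7.34e-08), 0.62 for Notch1 (adjusted p = 1.62e-05), 0.54 for Pdcd1lg2 (adjusted p = 7.89e-05) and 0.51 for Stat5b (adjusted p = 3.92e-07), all lower with metformin alone and higher with metformin added to FK506.

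The reverse order, higher with metformin alone and lower on top of FK506, was found for Ighg1 (-3.57, adjusted p = 8.71e-10), Fcer2a (-2.0, adjusted p = 4.78e-10), Bhlhe41 (-0.88, adjusted p = 0.000204), Il1rl2 (-0.77, adjusted p = 0.00161), Ikzf1 (-0.50, adjusted p = 1.25e-06), Irf1 (-0.43, adjusted p = 1.12e-06) and Tyk2 (-0.37, adjusted p = 0.00017). Ighg1 and Fcer2a (CD23) are B cell transcripts, and the B cell markers summed to 838 to 887 FPKM with FK506 and 410 to 441 with both drugs; their part in these differences was not tested.

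Gata3 fell in all 3 samples with metformin alone and was higher in all 3 samples with both drugs than with FK506, an interaction of 1.70. That value was past the threshold, but Gata3 is one of the genes chosen on these data, so it is given as a description.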

How the results depend on the processing

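The directions of the 10 genes against Control held under every alternative run except for Il1rl1 with metformin, which was not past the threshold and changed sign with libraries scaled to T cell genes (0.0019), without Control replicate 2 (0.015) and without Metformin replicate 1 (0.24). The Il10 difference between both drugs and FK506 also lost the threshold with no filter (0.36), on log2(FPKM + 0.1) (0.35), with T cell scaling (0.28) and in a fit of only those 2 groups (0.38). Their median log2 fold change moved as follows. With metformin it was -1.93 at a mean FPKM of at least 1, -1.72 on log2(FPKM + 1) and -1.73 with libraries scaled to T cell genes. With FK506 it was -2.58 on log2(FPKM + 1), -2.72 on log2(FPKM + 0.1), -2.43 on log2(TPM + 1) and -2.46 scaled to T cell genes. With both drugs it was -3.29 at a mean FPKM of at least 1 and -2.66, -2.82, -2.50 and -2.64 under those 4 settings. Against metformin it was -0.55 on log2(FPKM + 1) and -0.46 on log2(TPM + 1). A pseudocount shrinks the change of low genes by construction, and the stricter filter drops low members.

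With scaling to T cell genes the median of all genes was 0.51 with FK506 and 0.42 with both drugs against Control, and 0.34 for both drugs against metformin, where it had been 0.024, 0.033 and 0.025. This scaling also turned the split of all genes called into 5244 higher and 3333 lower with metformin (4352 and 4159 before it), 9319 and 3472 with FK506 (6283 and 6014), 8734 and 3950 with both drugs (6401 and 6011), 1311 and 4376 for both drugs against FK506 (2374 and 2286), 8432 and 3759 against metformin (6125 and 5755), and 2125 and 5651 for the interaction (3415 and 3649). For both drugs against metformin Gata3 turned to 0.22 on log2(TPM + 1) and 0.057 with T cell scaling, Il4ra to 0.26 and 0.092, Crlf2 to 0.15 and 0.0089, and Rad50 to 0.27 and 0.10. The Il13ra1 interaction turned to -0.28 on log2(FPKM + 1) and -0.11 on log2(TPM + 1), and the cause was not tested.

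Replicate numbers did not pair the samples: over 18 same-numbered pairs the correlation of deviations from the group means lay between -0.070 and 0.046, and 6 of 12 samples correlated best with their own number. The replicate block left the median with metformin at -1.81 and 48 pathway genes called. Depth limits Il4, Il5 and Il24 with FK506, where counts were between 0 and 28.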
